A study of Mus musculus with 2 samples.

Results

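The genes described here are 8 genes of peripheral myelin and Schwann cells, measured in gastrocnemius of mice with or without PGC-1β in their myofibres, namely Mal, Mbp, Pmp22, Mag, Prx, Sox10, S100b and Cnp. A probe set was taken for a gene where the platform annotation gave that gene as its only symbol. In this way 7 of the 8 genes were found, each with 1 probe set, among 19936 named nuclear genes and 35556 probe sets in all. Prx, encoding periaxin, is not listed in the annotation used here, so that its signal was not analysed and only its promoter was searched. The genes were chosen by name as a biological group, but with the log2 differences of these same arrays in view, so that their own differences are a description, without a test.

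The mutant mice were HSA-Cre-ERT2(tg/0)/PGC-1β L2/L2 males, and the controls were their HSA-Cre-ERT2(0/0)/PGC-1β L2/L2 male littermates, both on the C57BL/6 background. Both genotypes thus carried the floxed alleles, and both were injected with 1 mg tamoxifen per day for 5 days from 7 weeks of age. Muscle was taken at 8 weeks, 1 week after tamoxifen, and the labels call the controls wild-type. The transgene was present in the mutants alone, so that its own effect and that of the deletion cannot be told apart. The recombinase was driven by human skeletal actin regulatory elements, which are active in myofibres, so that Schwann cells were not the targeted cells. RNA of 3 mice was pooled for each genotype and hybridized to 1 Affymetrix Mouse Gene 1.0 ST array, which measures a gene with probes spread along its transcript. The values are log2 signals per probe set after robust multi-array averaging (RMA), and a difference is the PGC-1β(i)skm-/- log2 signal minus the control log2 signal. With 1 array per genotype the spread between mice is not known, and no test could be made.

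Nerves enter the muscle as axons wrapped by Schwann cells. A myelinating Schwann cell winds its membrane around a stretch of axon, and the layers are compacted by membrane and cytoplasmic proteins such as PMP22 and MBP, whereas MAG and CNP lie in the less compacted parts. SOX10 maintains the identity of the lineage and acts with EGR2 on myelin genes, and axonal neuregulin reaches the cell through the receptors ERBB2 and ERBB3. Whole muscle RNA comes largely from myofibres, and in such bulk samples fewer Schwann cells and less RNA per Schwann cell cannot be told apart.

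On the PGC-1β(i)skm-/- array Ppargc1b, the targeted gene, had a log2 signal of 7.06, against 7.87 on the control array. Its probe set is not restricted to the deleted exon. The 12 genes listed as myofibre markers had a median log2 signal of 13.34 on the PGC-1β(i)skm-/- array and 13.33 on the control array. Over all named genes the median log2 signal was 6.46 on the PGC-1β(i)skm-/- array and 6.45 on the control array, and the log2 differences had a median of −0.00055 and a standard deviation of 0.12. This spread is one over genes and not over mice.

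To show regulatory sequence of the genes that follow, the 250 bases before the annotated start are printed for Mal, Mag and Cnp. Mal had the largest difference of the 7 genes, and Mag and Cnp were the searched genes with a match to a SOX motif. The bases are from RefSeq (GRCm38.p6), run 5′ to 3′ on the strand of the gene, and capitals mark the match. They lie at chr2:127656696-127656945 (minus strand) for Mal, chr7:30914923-30915172 (minus strand) for Mag and chr11:100574689-100574938 (plus strand) for Cnp.
Mal: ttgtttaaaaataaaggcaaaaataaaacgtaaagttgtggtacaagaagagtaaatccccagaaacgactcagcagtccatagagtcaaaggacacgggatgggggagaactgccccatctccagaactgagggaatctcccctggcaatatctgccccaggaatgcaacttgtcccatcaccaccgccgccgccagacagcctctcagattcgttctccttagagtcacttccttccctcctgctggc
Mag: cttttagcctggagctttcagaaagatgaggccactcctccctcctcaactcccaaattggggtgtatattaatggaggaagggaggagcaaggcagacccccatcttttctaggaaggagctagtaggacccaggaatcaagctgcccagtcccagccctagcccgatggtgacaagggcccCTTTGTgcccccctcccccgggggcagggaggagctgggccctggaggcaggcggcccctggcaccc
Cnp: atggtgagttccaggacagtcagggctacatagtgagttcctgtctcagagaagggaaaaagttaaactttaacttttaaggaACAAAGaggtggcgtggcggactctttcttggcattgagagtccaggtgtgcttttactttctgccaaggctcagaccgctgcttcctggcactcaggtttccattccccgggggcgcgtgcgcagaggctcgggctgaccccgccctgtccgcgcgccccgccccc

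In the promoter table, windows from 250 bases before to 50 bases after a start were searched for 6 of the 8 genes. These were Mal, Prx, Mag, S100b, Pmp22 and Cnp, with 3 windows for Mag, 4 for Pmp22 and 1 for each other gene. Windows on chromosome 18, where Mbp lies, were left out of this search, and none was searched for Sox10. Searched on both strands, the SOX motif ACAAAG, with its reverse complement CTTTGT, was found for Cnp and for Mag, though not in every window of Mag. Its first base lay 67 bases before the start of Mag that is shown, and 167 bases before the start of Cnp. Of 32851 windows of the same length in the table, 18.7% held this motif. Counted by gene, 5680 of 27025 genes had it in at least 1 window. The related letters ACAATG, held by 12.6% of windows and 3863 of 27025 genes, were found for none of the 6 genes. The EGR motif GTGGGNG, held by 31.6% of windows and 9258 of 27025 genes, was found for Prx, Mag and Cnp. For Cnp it lay 21 bases past the start, and for Prx 107 bases before it. The ACAAAG and GTGGGNG motifs do not overlap in these windows, and a match to these letters is not evidence of binding.

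All 7 measured genes were lower on the PGC-1β(i)skm-/- array, and 2 of them, Mal and Mbp, had a ratio of PGC-1β(i)skm-/- to control of 0.8 or less, the threshold of the study's methods. None had a ratio of 1.2 or more. Over all named genes, 0.652% were at a ratio of 0.8 or less, 1.64% at one of 1.2 or more, 50.2% had a difference below 0 and 49.6% a difference above 0. The median difference of the 7 genes was −0.11. Since these differences were known when the genes were chosen, nothing is read from the counts. At a ratio of 1/1.2 or less (1.69% of all genes) and at 1/1.1 or less (10.1%) the count was also 2, so that the other 5 genes were all nearer to 0 than these limits.

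Of the proteins of myelin membranes, Mal showed the largest difference. MAL is a small proteolipid with 4 membrane spans that takes part in sorting membrane cargo in myelinating and epithelial cells. The log2 signal of Mal was 6.40 on the PGC-1β(i)skm-/- array and 6.82 on the control array. This is a difference of −0.42 and a ratio of 0.746, and it was the difference at rank 32 of 19936 genes, counted from the most decreased.

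Mbp encodes myelin basic protein, which joins the cytoplasmic faces of the myelin membrane. Its log2 signal was 7.26 on the PGC-1β(i)skm-/- array and 7.60 on the control array. The difference was −0.34, the ratio 0.791 and the rank 106, so that Mbp lay close to the threshold of 0.8. Its probe set is listed with 17 transcript accessions, and the transcripts of this gene are not resolved by the summarized value.

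Pmp22 encodes a membrane protein of compact myelin whose gene dosage underlies inherited neuropathies in humans, and it is also expressed in fibroblasts. It had a log2 signal of 11.02 on the PGC-1β(i)skm-/- array and 11.10 on the control array, a difference of −0.08. Among the 553 genes with a mean signal within 0.5 of that of Pmp22 the standard deviation of the difference was 0.10, so that Pmp22 was within this spread.

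The genes of less compacted myelin, Mag and Cnp, had small differences. Mag encodes myelin-associated glycoprotein, an adhesion molecule of the Siglec family that faces the axon. Its log2 signal was 5.47 on the PGC-1β(i)skm-/- array and 5.58 on the control array, a difference of −0.11, at a signal under the median of all genes. Cnp encodes a cyclic nucleotide phosphodiesterase of the cytoplasm of myelinating cells. Its log2 signal was 7.77 on the PGC-1β(i)skm-/- array and 7.86 on the control array, a difference of −0.09. Both differences were smaller than the standard deviation among genes of like signal, which was 0.13 around Mag and 0.11 around Cnp.

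S100b and Sox10 mark Schwann cells whether or not they form myelin. S100b encodes a calcium-binding protein that is also made by adipocytes, and had a log2 signal of 5.89 on the PGC-1β(i)skm-/- array and 6.02 on the control array, a difference of −0.13. This was about as wide as the standard deviation of 0.13 among genes of like signal. Sox10, the transcription factor of the lineage, had the smallest difference of the 7 genes. Its log2 signal was 6.36 on the PGC-1β(i)skm-/- array and 6.38 on the control array, a difference of −0.02 and a ratio of 0.986.

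**Figure D1:**
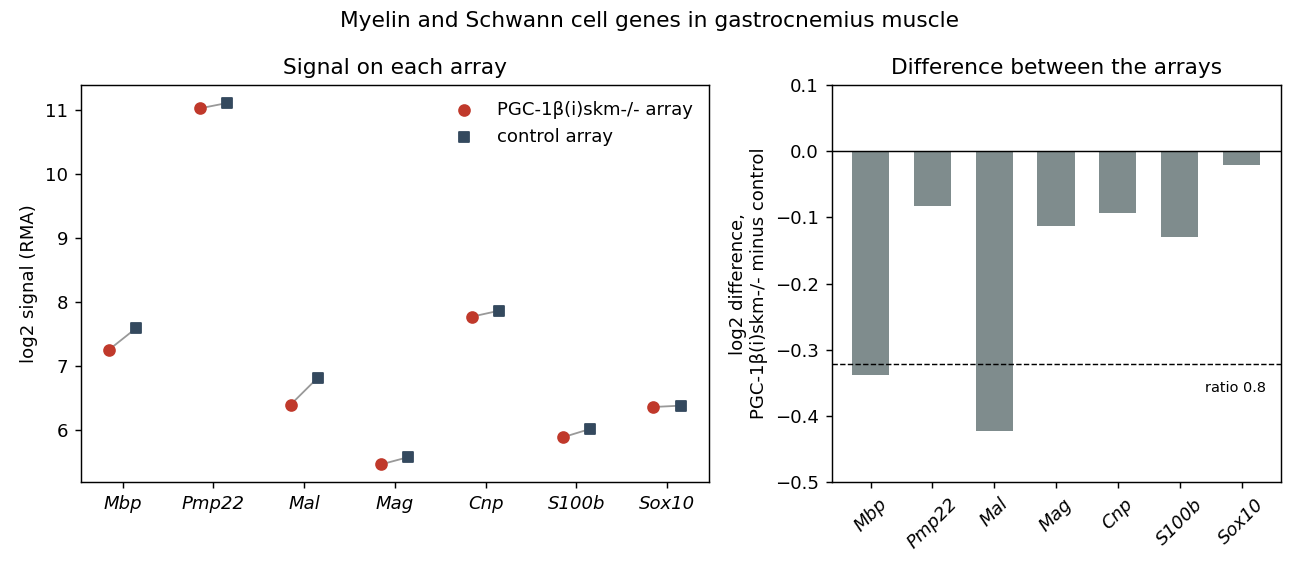
Left, log2 signal (RMA) of each gene on the PGC-1β(i)skm-/- array (red circles) and the control array (dark squares), where levels of different genes are not comparable; right, the log2 difference of each gene, with a dashed line at a ratio of 0.8. All 7 bars lie below 0, and those of Mal (−0.42) and Mbp (−0.34) pass the line.

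Other genes of peripheral myelin, listed by their known function, were below 0 in 19 of 29 cases, with a median difference of −0.04 against −0.00055 for all genes. In this list the excess below 0 lay among dim genes. Of the 16 genes whose log2 signal averaged 6 or more, 8 were below and 8 above 0, with a median of −0.0052. Among all named genes of such signal 53% were below 0. Of the 13 dimmer genes 11 were below 0, beside 46.4% of all dimmer genes. Of the 29 genes 1, Ugt8a, had a ratio of 0.8 or less, beside 0.652% of all named genes. None had a ratio of 1.2 or more, beside 1.64% of all named genes.

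Ugt8a encodes the enzyme that makes galactocerebroside, a main lipid of myelin. Its log2 signal was 5.31 on the PGC-1β(i)skm-/- array and 5.87 on the control array, a difference of −0.56 and a ratio of 0.678. It was at rank 12 of all named genes, at a signal under the median. Fa2h, which hydroxylates fatty acids of the same lipids, had a difference of 0.08.

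Drp2, whose protein forms a complex with periaxin at the outer Schwann cell membrane, had log2 signals of 7.40 on the PGC-1β(i)skm-/- array and 7.63 on the control array, a difference of −0.22. Gjc3, a connexin of myelinating cells, and Mtmr2, a phosphoinositide phosphatase mutated in a human demyelinating neuropathy, had differences of −0.21 and −0.20. In the other direction, Cadm3, an adhesion molecule of the axon, had a difference of 0.24, and Ncmap, a protein of non-compact myelin, one of 0.16. The list therefore did not lie on 1 side of 0, and whole muscle RNA does not show which cells gave its signals.

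The listed signals and receptors of Schwann cells had 13 of 17 measured genes below 0 and a median difference of −0.07. Here the genes below 0 were not mainly dim ones. Of the 11 genes whose log2 signal averaged 6 or more, 9 were below 0, beside 53% of all genes of such signal. Of the 6 dimmer genes 4 were below 0, beside 46.4% of all dimmer genes. Whole muscle RNA does not show which cells gave the signals of this list. Erbb3, a neuregulin receptor of Schwann cells, was the 1 gene with a ratio of 0.8 or less, beside 0.652% of all named genes. Its log2 signal was 6.53 on the PGC-1β(i)skm-/- array and 6.96 on the control array, a difference of −0.43 and a ratio of 0.744, at rank 30. Adgrg6, an adhesion receptor required for Schwann cells to start myelination, had log2 signals of 6.17 on the PGC-1β(i)skm-/- array and 6.47 on the control array, with a ratio of 0.813 just outside the threshold. Erbb2, the partner of Erbb3, had a difference of −0.11, and Nrg1, their ligand, one of 0.03. Bace1, a protease that cleaves neuregulin, had a difference of −0.17, Igf1r, a growth factor receptor of many cell types, of −0.17, and Dhh, a signal from Schwann cells to the nerve sheath, of −0.15.

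Without the 7 genes, the myelin genes and the signals together made up 46 genes, of which 2 (4.35%) were at a ratio of 0.8 or less, beside 0.652% of all named genes, and 32 lay below 0, beside 50.2% of all named genes, with a median of −0.05. Among those whose log2 signal averaged 6 or more, 17 of 27 lay below 0, beside 53.0% of all genes of such signal. These genes are not among the 8, but their lists were also chosen with earlier results of these data known. Nothing is therefore read from these counts, and no replicate stands behind them, since all values come from the same 2 arrays.

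**Figure D2:**
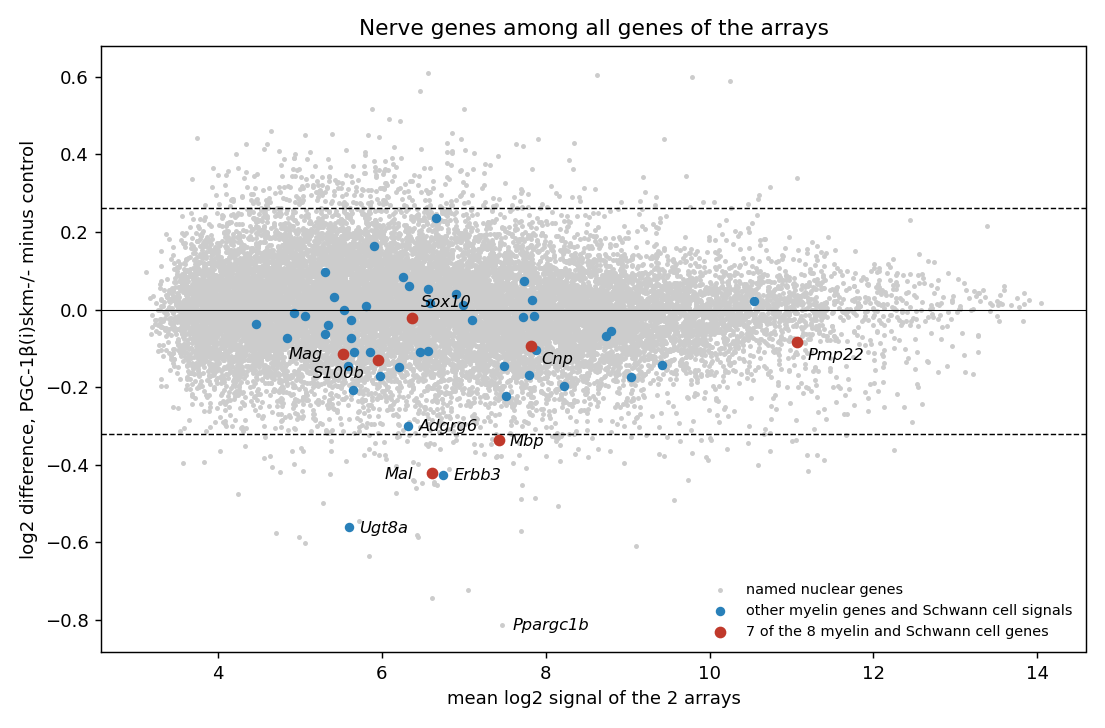
Points are the named nuclear genes, placed by the mean of their log2 signals (horizontal axis) and by the PGC-1β(i)skm-/- signal minus the control signal on the log2 scale (vertical axis), with 7 of the 8 myelin and Schwann cell genes in red, other myelin genes and Schwann cell signals in blue, and dashed lines at ratios of 0.8 and 1.2. Mal, Mbp, Ugt8a and Erbb3 lie below the lower line, and none of the coloured points lies above the upper line.

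The transcription factors of the lineage lay on both sides of 0. Of 16 listed genes 7 were below and 9 above, with a median of 0.02. Egr2, which together with SOX10 turns on myelin genes, had a log2 signal of 6.16 on the PGC-1β(i)skm-/- array and 6.17 on the control array, a difference of −0.01. Pou3f1, which acts before Egr2, had a difference of 0.04. Id2, an inhibitor of basic helix-loop-helix factors, had a difference of 0.31 and a ratio of 1.24. It was the 1 gene of the list past a threshold, beside 1.64% of all named genes at a ratio of 1.2 or more. Jun, which is also an immediate early gene of many cells, had a difference of 0.23, Nab1, a cofactor of EGR proteins, of 0.21, and Foxd3, a neural crest factor, of 0.12. On the other side of 0, Pou3f2, a relative of Pou3f1, had a difference of −0.20 and Nfatc4, a calcineurin-dependent factor, one of −0.14. Id2 and Jun are expressed in many cell types of muscle, so that their signal cannot be assigned to Schwann cells.

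Genes of non-myelinating and immature Schwann cells had 6 of 17 measured genes below 0 and a median of 0.02, with none past a threshold. Scn7a, a sodium channel of these cells, had a log2 signal of 8.41 on the PGC-1β(i)skm-/- array and 8.18 on the control array, a difference of 0.23. Matn2, a matrix protein, and Cdh2, N-cadherin, were both at 0.18, and Ncam1, a cell adhesion molecule also made by myofibres, at 0.10. Ngfr, the p75 neurotrophin receptor, had a difference of 0.01. The lowest values of this list were −0.08, for Atf3, Sox2 and Gfap, the last an intermediate filament of these cells.

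**Figure D3:**
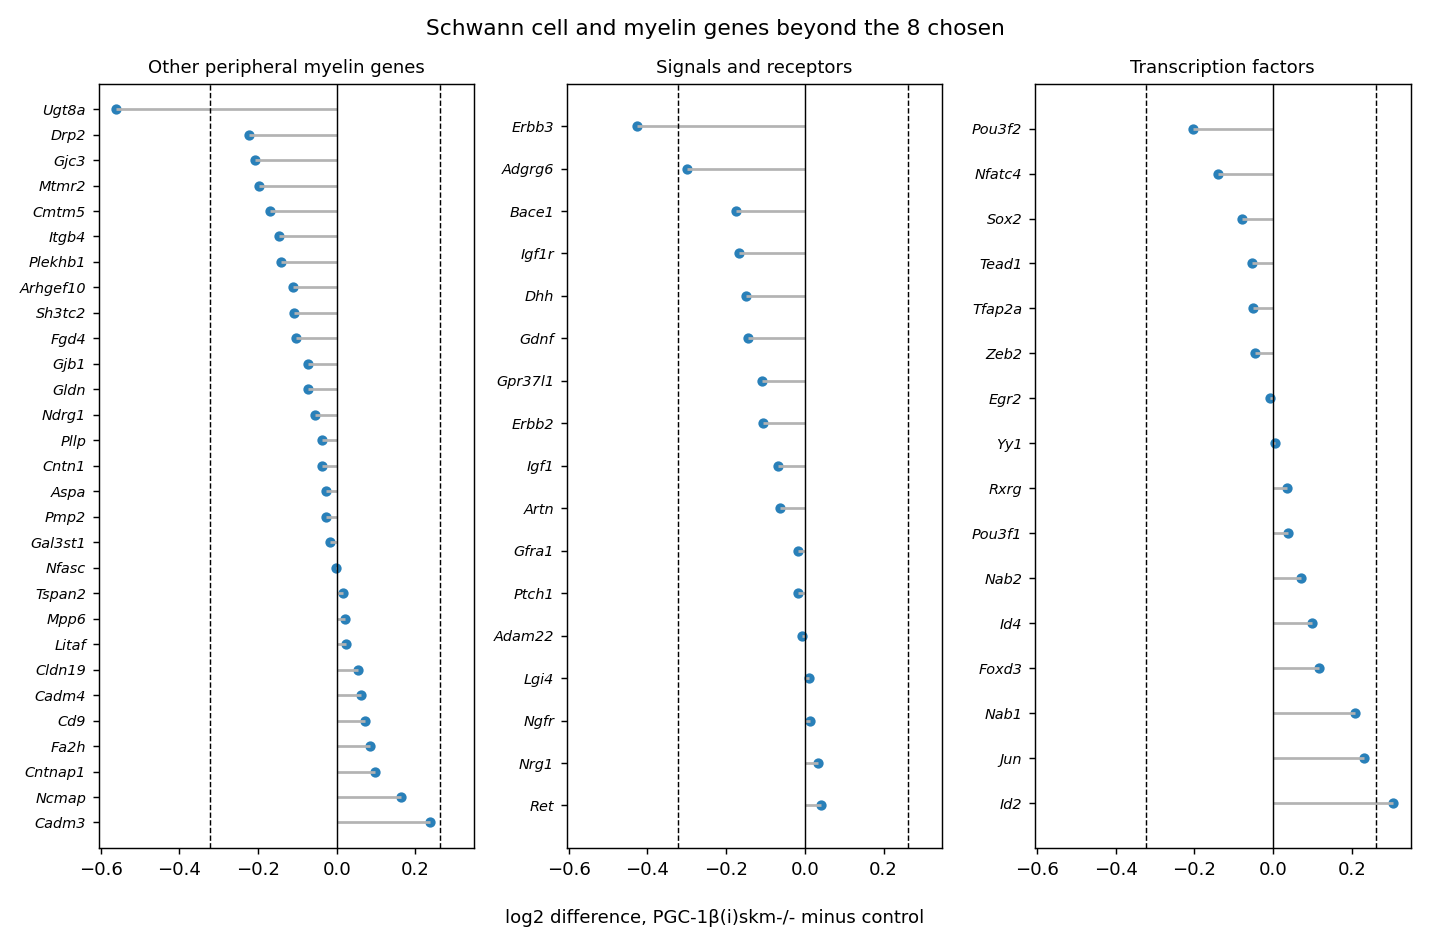
PGC-1β(i)skm-/- signal minus control signal on the log2 scale (horizontal axis) for each measured gene (vertical axis) of 3 lists, other peripheral myelin genes (left), signals and receptors (middle) and transcription factors (right), with dashed lines at ratios of 0.8 and 1.2. Ugt8a (−0.56) and Erbb3 (−0.43) pass the lower line and Id2 (0.31) the upper one, with Egr2 at −0.01.

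Cell types that could add to the same signals were read from their own lists. For axons and neurons, 6 of 13 genes lay below 0 and the median was 0.03, and Nefl, the light neurofilament, and Stmn2, a protein of growing axons, had differences of 0.21 and 0.19. The other neurofilaments, Nefm and Nefh, were at −0.05 and −0.02, Uchl1, a neuronal ubiquitin hydrolase, at −0.10 and Tubb3, a neuronal tubulin, at −0.07. For the nerve sheath, 7 of 15 genes lay below 0 and the median was 0.0048. Itga6, an integrin found on Schwann, sheath and endothelial cells, had the lowest value there, −0.26. For the neuromuscular junction 6 of 12 lay below 0 and the median was −0.0051. None of these 3 lists had a gene past a ratio of 0.8 or 1.2.

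Among oligodendrocyte genes, which mark the myelinating cell of the central nervous system, 5 of 11 were below 0, with a median of 0.02 and none past a threshold. Mog, which is known from central myelin, had log2 signals of 5.32 on the PGC-1β(i)skm-/- array and 5.58 on the control array, a difference of −0.26. Of 7 melanocyte genes, a lineage that shares SOX10, 4 were below 0, with a median of −0.02, and the lowest was Mitf, also expressed outside melanocytes, with a ratio of 0.801. Of 9 adipocyte genes, which bear on S100b, 3 were below 0, with a median of 0.07.

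Markers of connective tissue cells, which also express Pmp22, lay on the other side of 0. Each of 14 was above 0, with a median of 0.18, beside 49.6% of all named genes above 0. Their summed signal was 15665 on the PGC-1β(i)skm-/- array and 13769 on the control array. Comp, Fmod, Tnmd and Thbs4, matrix proteins and a membrane protein of tendon and cartilage, had a ratio of 1.2 or more, beside 1.64% of all named genes. Of 15 macrophage markers 14 were above 0, with a median of 0.21. A ratio of 1.2 or more was found for 6, namely C1qa, C1qb, C1qc, Mrc1, Tyrobp and Csf1r, beside 1.64% of all named genes. The summed signal of the 15 markers was 2306 on the PGC-1β(i)skm-/- array and 1955 on the control array. The summed signal of the 7 myelin and Schwann cell genes was 2720 on the PGC-1β(i)skm-/- array and 2938 on the control array, of which Pmp22 alone made up 2079 and the other 6 genes 641 on the PGC-1β(i)skm-/- array, against 2202 and 735 on the control array. Levels of different genes are not comparable, so that each summed signal is weighted to its brightest probe sets and is no amount of RNA. Endothelial markers had 8 of 10 genes above 0 and a median of 0.04. Log2 RMA signals have no zero, so that no marker can be called absent. How the make-up of the dissected muscle bears on the myelin genes was not tested.

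**Figure D4:**
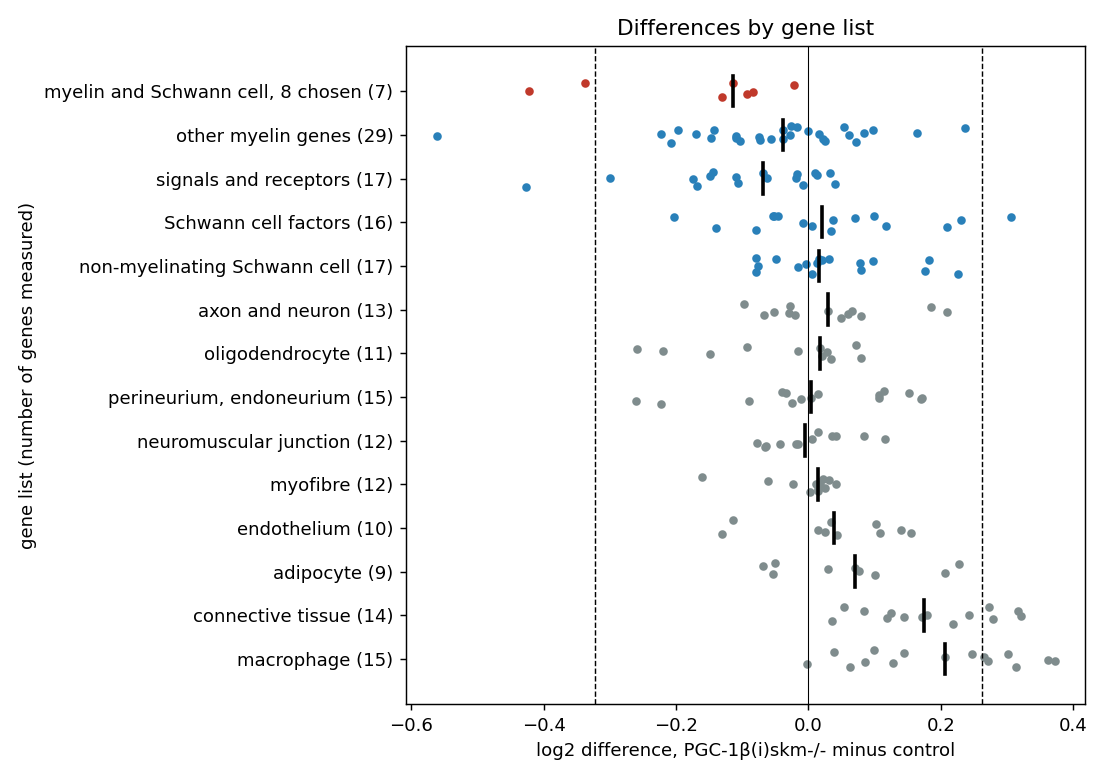
Points give the PGC-1β(i)skm-/- signal minus the control signal on the log2 scale (horizontal axis), 1 point per gene of the list named on the vertical axis, with the number of genes measured, black bars at the medians and dashed lines at ratios of 0.8 and 1.2. The median of the myelin and Schwann cell genes (red) is −0.11, that of signals and receptors −0.07, and those of connective tissue and macrophage genes 0.18 and 0.21.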

How the data were processed

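The authors extracted array intensities with GeneChip Command Console and deposited log2 signals made by RMA (background correction, quantile normalization, then a median polish over the probes of a set), which the submitters' processing notes name too. Quantile normalization hides a change shared by all genes, and RMA compresses differences of dim probe sets. For the probe sets, the sources used here state no genome build. Detection above background was not assessed. Since the number of arrays is 1 per genotype, it limits the precision of every value.

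Of 35556 probe sets, 21789 had 1 symbol in the platform annotation, 1621 had several and were left out, and 12146 are not listed there. Symbols were updated by Entrez ID to RefSeq, with 21698 matched. Where a gene had several probe sets (997 genes), the one with the highest mean signal stood for it, and mitochondrial genes were left out. No signal filter was applied.

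The 8 genes and all lists were chosen with earlier results of these data known. Named genes are all members, each list gene past a threshold in the nerve and cell type lists, and up to 4 per list that differed most on the same side as the list's median. Other genes, such as Egr2, Pou3f1, Erbb2, Nrg1, Dhh, Ngfr, Fa2h, Cadm3, Ncmap, Itga6, Mog, Mitf, Pou3f2, Nfatc4, Atf3, Sox2, Gfap, Nefm, Nefh, Uchl1 and Tubb3, were named for their role or to show both directions after their values were seen. As alternatives, probe sets of a gene were averaged, or the following were applied: subtraction of the median difference or of a loess curve on mean signal (span 0.3), a mean log2 signal of at least 6, probe sets of several genes, and other ratios. Promoter windows were searched for 3 motifs. The counting was tested on simulated data. Python 3.11.15, pandas 2.3.3, numpy 2.4.6 and statsmodels 0.14.6 were used.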

Additional observations from a re-analysis of the deposited data

How the results depend on the processing

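With a loess curve on mean signal subtracted, the differences of the 7 genes kept their sign and their side of the 0.8 threshold. Averaging of probe sets could not change them, since each has 1 probe set, and the median difference that was subtracted was only −0.00055. That of Mal ranged from −0.43 to −0.42, that of Mbp from −0.34 to −0.33 and that of Sox10 from −0.04 to −0.02. When genes had to reach a mean log2 signal of 6, 5 of the 7 genes were left, without Mag and S100b, and all 5 were below 0. The median of the list ranged from −0.13 to −0.09, that of signals and receptors from −0.11 to −0.07, and that of other myelin genes from −0.04 to −0.0052. The same filter moved the macrophage median to 0.27, and the melanocyte median to −0.32, where 1 gene, Mitf, was left. Of 102 values under an alternative, 100 differed by less than 0.05 on the log2 scale or, for counts, by less than 1.5 times. Many of these could not have moved. Subtracting −0.00055 cannot shift a difference by 0.05, and averaging leaves genes with 1 probe set unchanged. No probe set of several genes named a member, so that including these changed nothing. No paired analysis was possible because each genotype has 1 array. Dim probe sets, among them those of Mag, S100b and Ugt8a, limit how small a difference can be read, and no alternative replaces replicate arrays.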

Other observations

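The relatives of the myelin proteins in their gene families, chosen after the values of the myelin genes were seen, did not share 1 direction. Of 33 such genes 17 were below 0 and 16 above, with a median difference of −0.01. Of these 1, Emp1, had a ratio of 1.2 or more, beside 1.64% of all named genes. Each of the 3 EMP proteins, which are the closest relatives of PMP22 and are made in many tissues, was above 0. Emp1 had a log2 signal of 9.89 on the PGC-1β(i)skm-/- array and 9.62 on the control array, a difference of 0.26, Emp2 also had a difference of 0.26 and Emp3 one of 0.09. Of 6 relatives of MAL with the same type of membrane domain, 2 were below 0. Mal2 was at −0.15, with log2 signals of 4.49 on the PGC-1β(i)skm-/- array and 4.64 on the control array. Cmtm5, another gene with this type of domain, was listed with the myelin genes and not counted here, and was at −0.17.

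Of 7 other genes of the Siglec family, to which MAG belongs, 5 were below 0, over a range of −0.20 for Siglece to 0.23 for Cd33. Sox8 and Sox9, the other factors of the SOX group of Sox10, had differences of −0.04 and 0.17. Of 10 other S100 genes 5 were below 0, with S100a1, the form of striated muscle, at −0.08 and S100a11 at 0.19. Pmp2, the fatty acid-binding protein of peripheral myelin, had a difference of −0.03.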
